A study of Mus musculus with 6 samples.

Results

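A set of 10 cerebellar granule and Purkinje cell genes, among 54532 gene identifiers, was examined in brain RNA at postnatal day 15. They were the rows whose Ensembl identifier carries the symbol Cbln1, Cbln3, Fat2, Gabra6, Pcp2, Car8, Neurod1, Zic1, Zic2 or Barhl1 in GENCODE M21. The genes were chosen by their levels in these same 6 libraries, with earlier results known, so every value of theirs below is a description and none is a test. By label, 3 samples were Angptl2-/- mouse brain and 3 were Angptl2+/+ mouse brain, with replicate numbers 1 to 3 in each genotype. Angptl2-/- is a germline deletion of exon 2 on a C57BL/6 background, obtained from Angptl2 fl/fl males carrying Stra8-cre, a driver active in male germ cells, and wild-type females, and no other allele or agent was named for either genotype. The labels give the tissue as brain with all its cell types. How the brains were dissected, and whether each sample was a separate mouse, is not given in the sources used here, so the spread between samples may be technical.

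The cerebellum sits behind the midbrain and arises from the front end of the hindbrain. Granule cells are its small, very numerous excitatory neurons, and they send parallel fibres to Purkinje cells, the inhibitory neurons that carry the output of the cerebellar cortex. In bulk tissue the level of a transcript confined to these cells follows both their share and what each of them expresses, and fewer cells and less RNA per cell cannot be told apart.

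The cerebellar transcripts were concentrated in 1 library, Angptl2+/+ replicate 1. Of the 10 genes, 10 were highest there, against 17.5% of the 14862 genes tested. In 5 of them, Cbln3, Gabra6, Fat2, Pcp2 and Barhl1, the other 5 libraries of both genotypes were at or near 0. Cbln1, Neurod1 and Car8 were present in every library and several-fold higher in Angptl2+/+ replicate 1. Zic1 and Zic2 followed another order of libraries. These groupings were made after the values were seen. Since these levels chose the genes, they give no verdict on the label of brain with all its cell types. The level of each gene in each library follows.

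Depth did not separate the libraries. Fragments recovered from the deposited FPKM (fragments per kilobase of gene, scaled to library depth) numbered 18928921, 17368355 and 17127276 in Angptl2-/- and 17457051, 17513009 and 18167953 in Angptl2+/+. Mitochondrial genes took 3.31 to 5.75% of them. The depth implied by the FPKM value of 1 fragment was 19175242, 16879419 and 16382566 in Angptl2-/- and 17846871, 17767138 and 16976444 in Angptl2+/+. Pooled folds below use this depth, and shares of a library use the sums of recovered fragments. Angptl2 itself was at 0.166, 0.320 and 0.126 FPKM in Angptl2-/- and at 0.660, 0.958 and 0.290 FPKM in Angptl2+/+, so the genotypes overlapped by 1 library of each, and reads from the exons that remain can still be counted in the deletion. Coordinates below are those of GENCODE M21 on GRCm38, and intervals cover counting error only.

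Among the genes near 0 outside 1 library, Gabra6 encodes the alpha6 subunit of the GABA-A receptor, largely confined to cerebellar granule cells (chromosome 11, 42306437 to 42321072, minus strand). Its promoter region, 250 bases before to 50 after the RefSeq start (GRCm38.p6, chr11:42321023-42321322, minus strand), is shown because it belongs to a gene that separated the libraries nearly completely. The capitals mark GCCAA, the other-strand form of TTGGC, the short form of the site of nuclear factor I (NFI) proteins, whose binding to this promoter in granule cells is known background.
Gabra6: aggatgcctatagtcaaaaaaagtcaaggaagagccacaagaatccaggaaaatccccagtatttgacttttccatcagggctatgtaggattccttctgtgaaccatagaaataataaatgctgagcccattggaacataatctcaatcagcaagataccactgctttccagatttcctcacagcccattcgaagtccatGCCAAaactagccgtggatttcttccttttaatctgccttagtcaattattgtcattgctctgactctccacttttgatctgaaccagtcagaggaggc
The match begins at position -49, where the base before the start is position -1. Gabra6 was one of 4 genes with TTGGC on either strand, the others being Cbln3, Zic1 and Barhl1, of the 7 with a RefSeq window, and 46.7% of all 32851 windows hold it. CAGATG, an E-box form of the kind bound by bHLH factors such as Neurod1, was found on either strand in a window of Pcp2 only (17.2% of all windows). CAGCTG was found in Barhl1 only (16.3% of all windows). Neurod1 and Fat2 held none of these letters, and the RefSeq window of Fat2 lies inside its GENCODE gene. No window was given for Cbln1, Car8 and Zic2.

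Gabra6 stood at 0.105, 0.167 and 0.147 FPKM in Angptl2-/- and at 10.5, 0 and 0.0710 FPKM in Angptl2+/+ replicates 1, 2 and 3. These values rest on 5, 7 and 6 fragments in Angptl2-/- and on 467, 0 and 3 fragments in Angptl2+/+. Replicate 1 of Angptl2+/+ stood alone, and its other replicates were below all 3 Angptl2-/- libraries. Relative to the other 5 libraries pooled, that library had 109-fold more Gabra6 (95% interval 70.2 to 177).

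Cbln3 encodes a secreted partner of the synapse organiser Cbln1 that granule cells make (chromosome 14, 55878913 to 55884392). It was at 0.118, 0.207 and 0.276 FPKM in Angptl2-/- and at 10.9, 0.116 and 0.121 FPKM in Angptl2+/+, from 11, 17 and 22 against 943, 10 and 10 fragments. Cbln3 was thus 65.8-fold higher in Angptl2+/+ replicate 1 than in the other 5 libraries pooled (95% interval 51.6 to 85.1). Among the remaining libraries the genotypes of Cbln3 overlapped, at 10 to 22 fragments each.

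Fat2, a very large protocadherin of granule cells and their parallel fibres (chromosome 11, 55250609 to 55336564), had the widest fold of the genes detected in more than 1 library. It was at 0.0359, 0.0530 and 0.0168 FPKM in Angptl2-/- and at 4.76, 0.0271 and 0.0243 FPKM in Angptl2+/+. The fragments were 10, 13 and 4 in Angptl2-/- and 1233, 7 and 6 in Angptl2+/+, so that the single high value of Fat2 rests on the most fragments of these 5 genes. The pooled fold was 151 (95% interval 110 to 212). Its interval did not overlap that of Cbln3, while those of Gabra6 and Fat2 overlapped.

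Pcp2, a modulator of G protein signalling made by Purkinje cells and by bipolar cells of the retina (chromosome 8, 3623371 to 3625545), showed the same separation for the other cell type. It was at 0.0285, 0.0648 and 0.1002 FPKM in Angptl2-/- and at 6.16, 0.0616 and 0 FPKM in Angptl2+/+. Only 1, 2 and 3 fragments in Angptl2-/- and 2 and 0 in Angptl2+/+ replicates 2 and 3 stood against 201 in Angptl2+/+ replicate 1. The pooled fold of 123 therefore had a wide interval (61.1 to 288), and 51.5% of the exon length of Pcp2 is shared with Pet100, from which reads cannot be told apart without strand.

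Barhl1, a homeobox factor of the granule cell lineage (chromosome 2, 28907679 to 28916668), had 127 fragments and 1.82 FPKM in Angptl2+/+ replicate 1. It had 0 fragments in all 3 Angptl2-/- libraries and in Angptl2+/+ replicates 2 and 3. A count of 0 allows up to 3 fragments per library, so Barhl1 was at least 38.9-fold higher in Angptl2+/+ replicate 1 than in any of the other 5. Its mean of 0.304 FPKM left it as the 1 gene of the 10 under the minimum of 0.5 FPKM for the genotype fit.

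**Figure D1:**
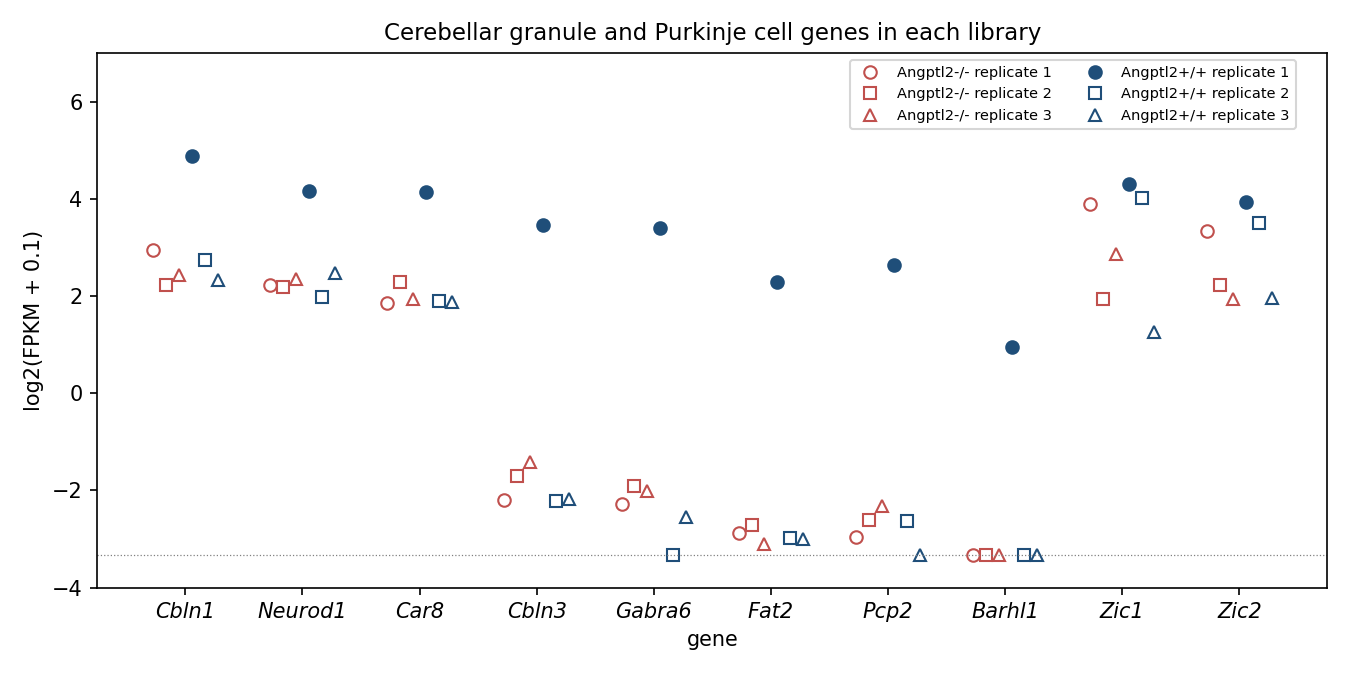
Level of each of the 10 genes in each library, as log2(FPKM + 0.1), with red symbols for the 3 Angptl2-/- libraries and blue for the 3 Angptl2+/+ libraries, replicate 1 of Angptl2+/+ filled, and the dotted line at 0 FPKM. The filled point is the highest for 10 of 10 genes, stands clear of the other libraries for the 8 genes on the left, and lies close to Angptl2+/+ replicate 2 and Angptl2-/- replicate 1 for Zic1 and Zic2.

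A second group was present in every library. Cbln1, the secreted organiser of the synapse between parallel fibres and Purkinje cells, is also made in other brain regions (chromosome 8, 87468405 to 87472609). It was at 7.59, 4.60 and 5.31 FPKM in Angptl2-/- and at 29.2, 6.62 and 4.93 FPKM in Angptl2+/+. Angptl2+/+ replicate 1 was 3.84-fold above the next highest library for Cbln1, and the other 5 libraries of both genotypes lay within 1.65-fold of each other and overlapped. The high value of Cbln1 rests on 1580 fragments, and the other libraries on 236 to 442.

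Neurod1 drives neuronal differentiation and stays on in granule cells and in some forebrain neurons (chromosome 2, 79452521 to 79456751). It was at 4.55, 4.43 and 4.97 FPKM in Angptl2-/- and at 17.8, 3.86 and 5.48 FPKM in Angptl2+/+. Outside Angptl2+/+ replicate 1, which was 3.25-fold above the next library, the values of Neurod1 lay within 1.42-fold of each other. Of its exon length, 13.0% is shared with Cerkl and Gm26755.

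Car8, a carbonic anhydrase related protein that binds the IP3 receptor in Purkinje cells (chromosome 4, 8143362 to 8239041), repeated this pattern. It was at 3.52, 4.81 and 3.72 FPKM in Angptl2-/- and at 17.6, 3.64 and 3.59 FPKM in Angptl2+/+. The library that stood apart was 3.65-fold above the next one, and the remaining 5 lay within 1.37-fold. Car8 thus had a floor of 3.52 FPKM in every library, while Pcp2, the other Purkinje cell gene of the set, had none.

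Zic1 and Zic2 encode zinc finger factors that mark the granule cell lineage and also the meninges, the septum and other midline structures. Zic1 (chromosome 9, 91358058 to 91365810) was at 14.7, 3.73 and 7.17 FPKM in Angptl2-/- and at 19.6, 16.2 and 2.30 FPKM in Angptl2+/+. Zic2 (chromosome 14, 122475435 to 122479852) was at 10.01, 4.57 and 3.71 FPKM in Angptl2-/- and at 15.2, 11.3 and 3.80 FPKM in Angptl2+/+. Replicate 1 of Angptl2+/+ was only 1.21-fold above the next library for Zic1 and 1.35-fold for Zic2. The other 5 libraries spanned 7.05-fold for Zic1 and 3.03-fold for Zic2, with Angptl2-/- replicate 1 and Angptl2+/+ replicate 2 high for both, so that neither gene separated 1 library from the rest.

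As a share of the library, the 10 genes took 165, 79.0 and 93.4 parts per 1000000 fragments (ppm) in Angptl2-/- and 538, 173 and 64.4 in Angptl2+/+. The 95% Wilson intervals were 528 to 549 ppm in Angptl2+/+ replicate 1 and 60.8 to 179 over the others, from the lowest bound to the highest. The share in Angptl2+/+ replicate 1 was 5.76-fold the median of the other 5 libraries. Most of the spread among those others came from Zic1 and Zic2, which took 114, 33.4 and 49.3 ppm in Angptl2-/- and 159, 126 and 22.5 in Angptl2+/+. Cbln1, Neurod1 and Car8 together took 49.7, 43.4 and 42.1 ppm in Angptl2-/- and 209, 45.3 and 40.9 in Angptl2+/+, a 4.83-fold difference of replicate 1 from the median of the rest. Cbln3, Gabra6, Fat2, Pcp2 and Barhl1 together took 1.43, 2.25 and 2.04 ppm in Angptl2-/- and 170, 1.08 and 1.05 in Angptl2+/+. That is 27, 39 and 35 fragments against 2971, 19 and 19, and replicate 1 was 119-fold above the median of the others. In these 5 libraries the Wilson intervals of the near-0 set ran from 0.670 to 3.07 ppm.

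**Figure D2:**
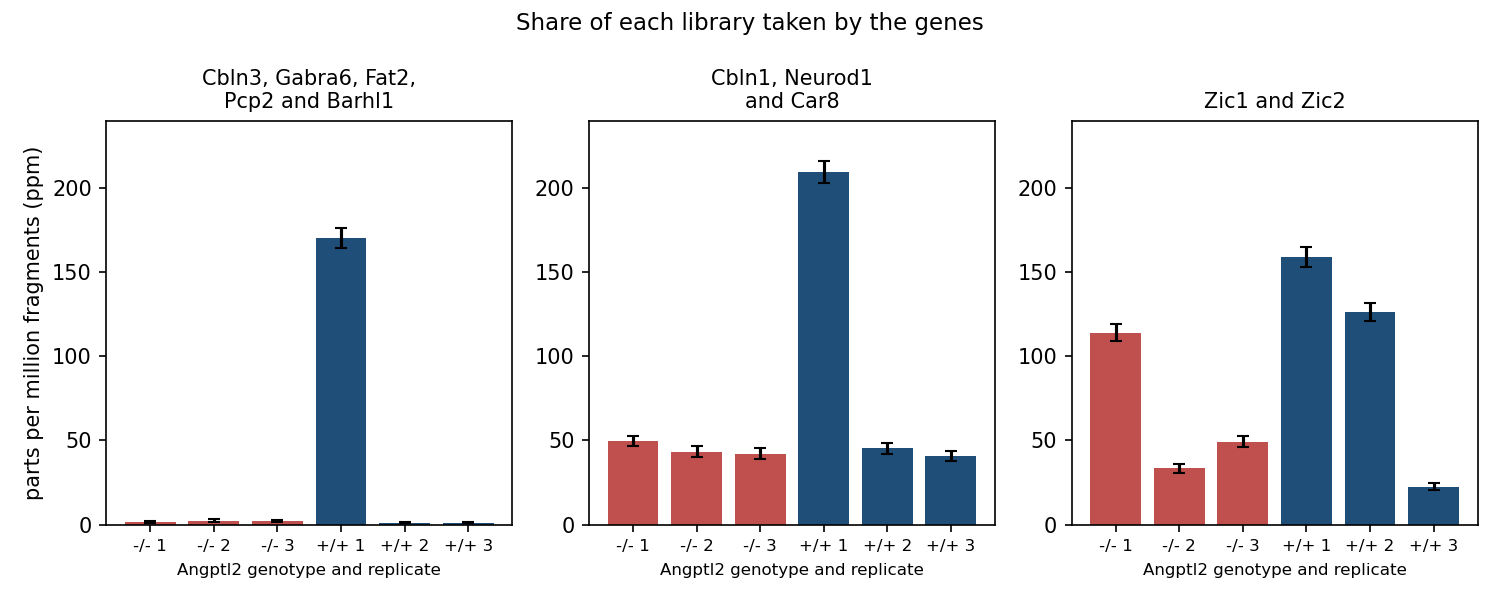
Parts per 1000000 fragments (ppm) of each library (y axis, from 0) taken by 3 subsets of the genes, with red bars for Angptl2-/- and blue bars for Angptl2+/+ replicates 1 to 3, and error bars for 95% Wilson intervals of counting error. The left panel has 1 bar, at 170 ppm, beside 5 bars of at most 2.25. The middle panel has the same bar highest at 209, and the right panel has 3 high libraries of both genotypes.

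Between genotypes, the fitted log2 fold changes (Angptl2-/- minus Angptl2+/+, on the scale of log2(FPKM + 0.1)) were negative in 10 of 10 genes. For genes near 0 their size depends on the pseudocount, and a smaller pseudocount raised some and lowered others. They ran from -1.66 for Fat2 to -0.30 for Zic1, with a median of -1.01, beside a median of -0.004 over all genes tested. Because the genes were selected on these libraries, nothing is read from the counts that follow. None of the 9 genes tested was called by limma with Benjamini-Hochberg adjustment (0 of 9, adjusted p from 0.527 to 0.877, background 0%). At an unadjusted p under 0.05, 0 of 9 were lower, where 1355 genes of all tested (9.12%) were lower and 1054 higher, and voom on the recovered fragments also called 0 genes of the whole table. The genotypes overlapped in 10 of 10 genes, and 22.5% of all genes tested did not overlap.

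The genotype difference rested on Angptl2+/+ replicate 1 in the genes other than Zic1 and Zic2. Zic2 stayed negative without that library. Zic1 turned positive without it, and also without Angptl2-/- replicate 2 (0.18) or Angptl2+/+ replicate 2 (0.12). The size of the difference beside its standard error was -0.78 ± 0.61 for Cbln1, -1.66 ± 1.50 for Fat2, -1.25 ± 1.65 for Gabra6 and -0.64 ± 0.55 for Zic2 (log2, SE, n = 3 each). Without Angptl2+/+ replicate 1, an alternative listed with the others, the median of the 9 genes that could be fitted was 0.14 and 7 of the 9 were positive. Gabra6 was then at 0.86 ± 0.38, Cbln3 at 0.42 ± 0.41 and Zic2 at -0.24 ± 0.57, with Angptl2+/+ represented by 2 libraries. Barhl1 was at 0 in all the libraries that remained. The fitted -1.42 of Barhl1 with all libraries is set by the pseudocount and is no bound.

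**Figure D3:**
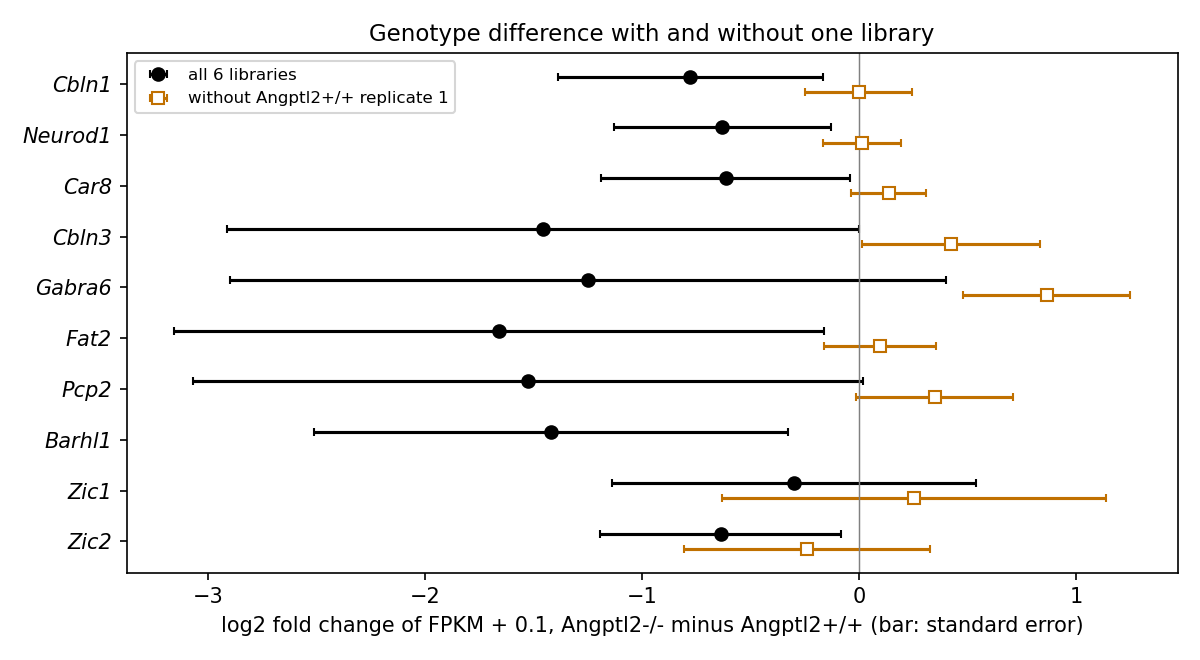
Log2 fold change of FPKM + 0.1 for each gene (x axis, Angptl2-/- minus Angptl2+/+) with its standard error, fitted on all 6 libraries (black) and without Angptl2+/+ replicate 1 (orange). The black points lie between -1.66 and -0.30, while the orange ones lie between -0.24 and 0.86, and Barhl1 has no orange point since it was at 0 in the remaining libraries.

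The separation of Angptl2+/+ replicate 1 reached other genes. Over all 14862 genes tested, 78 (0.525%) were at least 2-fold above each other library there on the scale of log2(FPKM + 0.1), and 7 of the 9 tested cerebellar genes were among them, the exceptions being Zic1 and Zic2. Since these levels chose the genes, nothing is read from that count. The same count was 13, 37 and 22 genes for the Angptl2-/- libraries and 20 and 48 for Angptl2+/+ replicates 2 and 3, and 0 of the cerebellar genes were in those counts.

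The genes whose profile over the 6 libraries was nearest to the mean profile of the 10, by root mean square difference on the centred log2 scale among 11722 protein-coding genes with a mean of at least 1 FPKM, began with Prph, an intermediate filament of peripheral and brainstem neurons (0.40). It was followed by Cabp7 (0.46), Tcf7l2 (0.50), Gm2115 (0.53), Gdf10 (0.59), Slc6a3 (0.61), Nrtn (0.67), Slc17a6 (0.68), Prox1 (0.70) and Tshz2 (0.73). Cabp7 was at 5.77, 3.79 and 5.02 FPKM in Angptl2-/- and at 26.2, 6.49 and 3.50 FPKM in Angptl2+/+, an order close to that of Cbln1. Zic1 and Zic2, taken alone after their values were seen, were nearest to Paqr6 (0.25), Igsf1 (0.27), Col9a2 (0.31), Hist1h1e (0.33) and Ret (0.34).

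Other cerebellar genes, in lists drawn up with earlier results known, gave a mixed picture. Of 14 other granule cell genes, 11 were tested, 7 lower and 4 higher in Angptl2-/- with a median log2 fold change of -0.10. By limma 0 were called, and 1 was lower at an unadjusted p under 0.05. Angptl2+/+ replicate 1 was highest for 4 of the 11 tested and for 7 of all 14, among them Mab21l1 (12.9-fold above the next library). Mab21l1 reached the minimum to be tested only through Angptl2+/+ replicate 1 and had at most 9 fragments in any other library. Of its exon length, 39.4% is shared with Nbea. Gabrd, a GABA-A delta subunit also used in the forebrain, was at 11.4, 16.7 and 18.4 FPKM in Angptl2-/- and at 16.2, 13.6 and 27.4 FPKM in Angptl2+/+. Grm4, a presynaptic glutamate receptor of parallel fibres, was at 9.20, 6.75 and 6.63 FPKM in Angptl2-/- and at 19.3, 9.01 and 7.70 FPKM in Angptl2+/+. Replicate 1 of Angptl2+/+ was therefore highest for Grm4 and in the middle for Gabrd. Grin2c, an NMDA receptor subunit of mature granule cells, was at 6.09, 6.80 and 6.28 FPKM in Angptl2-/- and at 9.60, 8.03 and 10.7 FPKM in Angptl2+/+, without overlap and with replicate 3 highest (log2 fold change -0.55, limma adjusted p = 0.273). In this list 2 of the 11 tested genes did not overlap, beside 22.5% of all genes tested.

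Of 17 other Purkinje cell genes, 13 were tested, 9 lower and 4 higher in Angptl2-/-, with a median of -0.29. By limma 0 were called, and an unadjusted p under 0.05 was reached by 4, of which 3 were lower. Angptl2+/+ replicate 1 was highest for 7 of the 13 tested and for 10 of all 17, among them Slc1a6 (2.51-fold above the next library), Homer3 (2.09-fold) and Ppp1r17 (4.92-fold). Homer3 shares 25.4% of its exon length with Ddx49, and Ppp1r17 was tested only through Angptl2+/+ replicate 1. Dner, a Notch-like surface protein found in many neurons, was at 57.3, 58.1 and 56.5 FPKM in Angptl2-/- and at 48.8, 51.9 and 43.0 FPKM in Angptl2+/+. Its genotypes did not overlap, and it was higher in Angptl2-/- (log2 fold change 0.26, limma adjusted p = 0.287). Pcp4, a calmodulin regulator, was at 26.1, 40.8 and 27.9 FPKM in Angptl2-/- and at 29.9, 24.2 and 22.6 FPKM in Angptl2+/+. Neither Dner nor Pcp4 was highest in Angptl2+/+ replicate 1. Both are abundant outside the cerebellum, and whether that bears on their levels here was not tested. Pvalb, the calcium buffer parvalbumin of Purkinje cells and fast-spiking interneurons, was at 6.56, 11.3 and 10.2 FPKM in Angptl2-/- and at 45.2, 14.7 and 30.6 FPKM in Angptl2+/+ (log2 fold change -1.57, limma adjusted p = 0.273), and its genotypes did not overlap. Of the 13 tested, 4 did not overlap, Dner and Pvalb among them, where 22.5% of all genes tested did not.

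Of 7 genes of other cerebellar cells, 3 were tested, 3 of them lower in Angptl2-/-, with a median of -0.85. By limma 0 were called, and 0 passed an unadjusted p of 0.05. Angptl2+/+ replicate 1 was highest for 2 of the 3 tested and for 5 of all 7. Gdf10, a growth factor of Bergmann glia, was at 2.02, 1.32 and 1.37 FPKM in Angptl2-/- and at 7.36, 2.40 and 1.29 FPKM in Angptl2+/+. Eomes, which marks unipolar brush cells and also forebrain progenitors, was at 2.87, 0.200 and 1.37 FPKM in Angptl2-/- and at 1.93, 2.99 and 1.02 FPKM in Angptl2+/+. Gdf10 was highest in Angptl2+/+ replicate 1 and Eomes was not. En2, a homeobox factor of the midbrain and cerebellum chosen after its values were seen, was at 0.0589, 0.184 and 0.190 FPKM in Angptl2-/- and at 3.72, 0.159 and 0.117 FPKM in Angptl2+/+, 19.6-fold above the next library in replicate 1. En2 was among the tested genes only through Angptl2+/+ replicate 1. Without Angptl2+/+ replicate 1, the median was -0.01 for the granule cell list, -0.08 for the Purkinje cell list and -0.18 for the list of other cerebellar cells.

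Neighbouring regions were read in the same way. The Hox genes, position genes of the brainstem behind the cerebellum and of the spinal cord, were undetected. Of 17, 15 had 0 fragments in all 6 libraries, and Hoxa3 and Hoxb4 had a trace in 1 Angptl2-/- library each (0.010 and 0.024 FPKM), so none was tested and Angptl2+/+ replicate 1 had 0 of them. Of 9 genes of brainstem neurons, 8 were detected and 4 of these were highest in Angptl2+/+ replicate 1, but only Tph2 reached the minimum to be tested. Tph2 did so only through Angptl2+/+ replicate 1, since each other library was at most at 0.471 FPKM. Tph2, which makes serotonin in neurons of the raphe, was at 0.380, 0.309 and 0.233 FPKM in Angptl2-/- and at 2.26, 0.254 and 0.471 FPKM in Angptl2+/+. Slc6a5, the glycine transporter of inhibitory brainstem neurons, was at 0, 0.0411 and 0.0169 FPKM in Angptl2-/- and at 0.739, 0.0313 and 0.0409 FPKM in Angptl2+/+. Chrna2, a nicotinic receptor subunit, had the opposite order, at 0.289, 0.172 and 0.403 FPKM in Angptl2-/- and at 0.0740, 0.386 and 0.498 FPKM in Angptl2+/+, where replicate 1 was the lowest of the 6 libraries. Dbh and Slc6a2, of noradrenergic neurons, were not highest in replicate 1 either. These 4 genes beside Tph2 were chosen after their values were seen. The midbrain list had 7 of 7 genes highest in Angptl2+/+ replicate 1, of which 2 were tested. Slc6a3, the dopamine transporter of midbrain neurons, was at 0.332, 0.171 and 0.247 FPKM in Angptl2-/- and at 10.7, 0.423 and 0.119 FPKM in Angptl2+/+, a separation of 25.2-fold from the next library. Slc6a3 too was tested only through Angptl2+/+ replicate 1. Ddc, the enzyme that completes dopamine and serotonin synthesis, was at 1.44, 1.65 and 2.18 FPKM in Angptl2-/- and at 4.99, 1.84 and 1.03 FPKM in Angptl2+/+.

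In the thalamus list, 4 of 7 genes were highest in Angptl2+/+ replicate 1. Slc17a6, the vesicular glutamate transporter of thalamus, midbrain and hindbrain, was at 8.86, 5.86 and 7.18 FPKM in Angptl2-/- and at 25.8, 10.6 and 4.99 FPKM in Angptl2+/+. Ramp3, a receptor partner, was at 14.7, 11.8 and 13.9 FPKM in Angptl2-/- and at 14.05, 18.5 and 14.9 FPKM in Angptl2+/+, so this thalamic gene did not set replicate 1 apart.

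In the telencephalon list, 1 of 10 genes was highest in Angptl2+/+ replicate 1, and its mean level on the centred log2 scale there was -0.02, inside the range of the other libraries (-0.37 to 0.33). Neurod6, a factor of cortical and hippocampal excitatory neurons, was at 51.4, 57.0 and 37.2 FPKM in Angptl2-/- and at 40.2, 40.5 and 40.7 FPKM in Angptl2+/+. Nrgn, a calmodulin-binding protein of forebrain neurons, was at 551, 683 and 534 FPKM in Angptl2-/- and at 797, 874 and 1123 FPKM in Angptl2+/+. Emx1, a cortical homeobox gene, was at 4.01, 3.74 and 2.01 FPKM in Angptl2-/- and at 6.95, 7.27 and 8.31 FPKM in Angptl2+/+. None of these 3 forebrain genes was higher in Angptl2+/+ replicate 1 than in the other Angptl2+/+ libraries. The genotypes of Nrgn and Emx1 did not overlap (log2 fold changes -0.65 and -1.24, limma adjusted p = 0.273 for both). In this list 4 of 10 genes did not overlap, beside 22.5% of all genes tested.

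Myelin genes were also highest in this library. Of 10, 10 were highest in Angptl2+/+ replicate 1, with summed levels of 618, 843 and 1180 FPKM in Angptl2-/- and 2008, 986 and 986 FPKM in Angptl2+/+. Mbp, myelin basic protein, was at 147, 162 and 181 FPKM in Angptl2-/- and at 495, 257 and 205 FPKM in Angptl2+/+. For Mbp the genotypes did not overlap, as for 2 of the 10 myelin genes, near the 22.5% of all genes tested. The median log2 fold change of the 10 myelin genes was -0.62 (0 called by limma, 3 lower at an unadjusted p under 0.05) and -0.25 without Angptl2+/+ replicate 1. What part the share of cerebellum and midbrain in a library has in the myelin values was not tested.

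**Figure D4:**
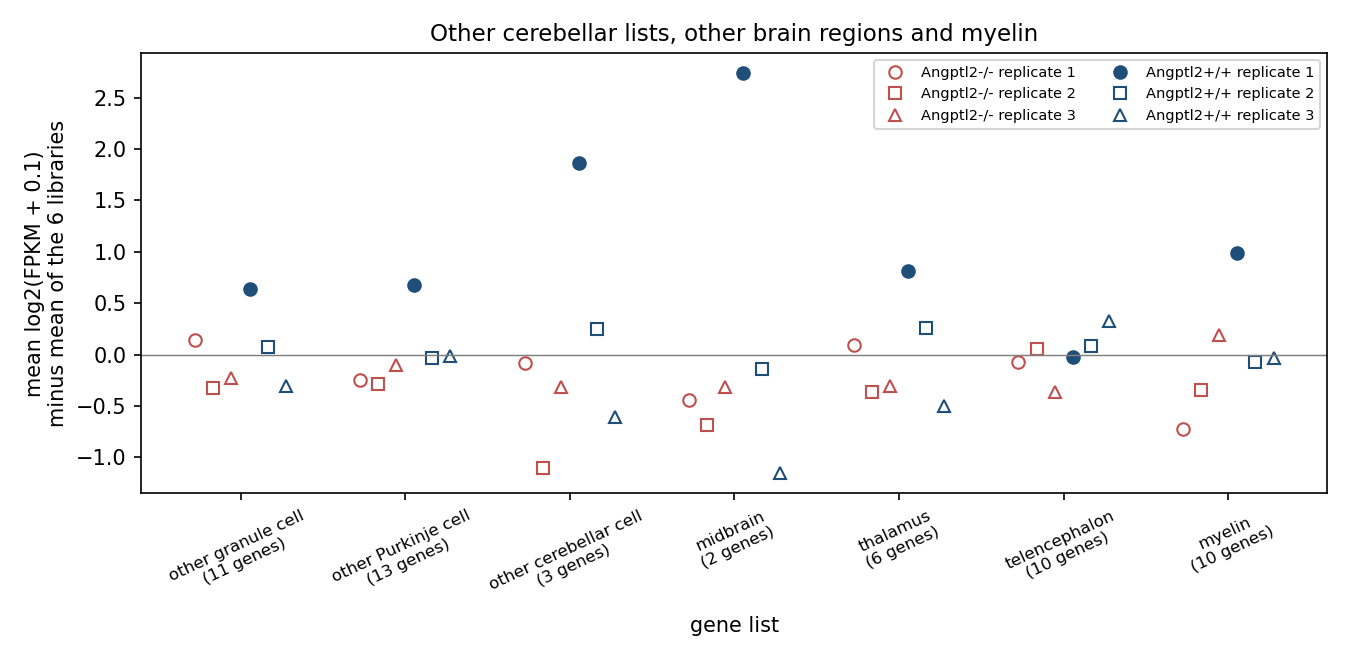
Mean over the tested genes of each list of log2(FPKM + 0.1) minus the mean of the 6 libraries (y axis), with red symbols for Angptl2-/- and blue for Angptl2+/+, replicate 1 of Angptl2+/+ filled. The filled point is the highest for the granule cell, Purkinje cell, other cerebellar, midbrain, thalamus and myelin lists and lies at -0.02 for the telencephalon. Some tested genes passed the minimum FPKM only through the filled library.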

How the data were processed

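Total RNA of mouse brain at postnatal day 15 was sequenced on an Illumina HiSeq X instrument in 3 Angptl2-/- and 3 Angptl2+/+ samples with paired reads of 150 bases. The authors deposited 1 FPKM value per gene and library. The submitters' processing notes name Bowtie 0.12.2 and mm8. Which tool counted the fragments, on which annotation and with which strand option is not given in the sources used here. Identifiers were matched to GENCODE M21 (54495 of 54532). Multiplying FPKM by exon length gave whole fragments, within 0.05, for 96.6 to 96.8% of values above 0, which sums to 17127276 to 18928921 fragments per library.

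The 10 genes and the 9 lists (98 genes) were chosen with earlier results of these data known. All 14862 genes with a mean of at least 0.5 FPKM were fitted on log2(FPKM + 0.1) with limma 3.58.1 (R 4.3.3) and an intensity trend, adjusted by Benjamini-Hochberg at 0.05, and Barhl1 was taken from the fit with no filter. Some genes passed this minimum only through Angptl2+/+ replicate 1, among them Cbln3, Fat2, Gabra6, Pcp2, Mab21l1, Ppp1r17, En2, Tph2 and Slc6a3. Counts of tested genes highest in that library, and medians of tested genes, therefore depend on it, and nothing is read from them. The fit was run on simulated data with a smaller spread than the real data and no library set apart, so that run does not show how it behaves here. Named genes were all 10, the 2 most abundant tested genes and the one of smallest p in each list, the 10 nearest in profile, and Angptl2, with En2, the genes nearest to Zic1 and Zic2, Hoxa3, Hoxb4, Mab21l1, Slc1a6, Homer3, Ppp1r17, Slc6a5, Chrna2, Dbh and Slc6a2 chosen after their values were seen. Of the genes this rule names, 1 is not reported here. Promoters were taken from the 2 genes with the largest ratio of Angptl2+/+ replicate 1 to the median of the other libraries, Fat2 and Gabra6, and that of Fat2 was not printed because its window lies inside the gene. A comparison of the proteins was not run here. Python 3.11.15 with pandas 2.3.3, numpy 2.4.6, scipy 1.17.1 and matplotlib 3.10.9 produced the tables and plots.

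The alternatives were pseudocounts of 1 and 0.01, no filter, a minimum of 1 FPKM, voom on recovered fragments, scaling by median ratios, sums that leave out mitochondrial and haemoglobin genes, quantile normalization, the replicate number as a block and leaving out each library.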

Additional observations from a re-analysis of the deposited data

How the results depend on the processing

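The median log2 fold change of the 10 genes stayed negative under every scaling, pseudocount and filter tried, and 0 of 88 such values of single genes reversed. Its size moved from -1.01 to -0.65 at a pseudocount of 1, -0.72 at 0.01 and -0.72 with voom. Among single genes, Gabra6 moved from -1.25 to -0.47 at 0.01 and -0.53 with voom, Fat2 from -1.66 to -0.82 and Pcp2 from -1.53 to -0.89 at a pseudocount of 1, and Barhl1 from -1.42 to -0.50 at 1, -2.51 at 0.01 and -2.66 with voom. The other 6 stayed within 1.5 times. Leaving out 1 library at a time gave medians from -1.69 to 0.14, positive only without Angptl2+/+ replicate 1, and reversed 9 of 59 single values, 7 of them without that library. These ranges were -2.41 to 0.42 for Cbln3, -2.55 to 0.10 for Fat2, -2.50 to 0.86 for Gabra6, -2.64 to 0.35 for Pcp2, -1.08 to 0.013 for Neurod1, -0.99 to 0.14 for Car8 and -1.27 to 0.25 for Zic1, which was also positive without Angptl2-/- replicate 2 (0.18) and without Angptl2+/+ replicate 2 (0.12). Deviations from the genotype mean, over genes, correlated at 0.04, -0.07 and 0.16 between samples with the same number. For samples with different numbers they correlated from -0.26 to 0.26, so these values do not settle whether the numbers pair the samples. With the replicate block the median was -1.01 and 1 gene of the whole table was called. Leaving out libraries called 0 to 1, the 1 without Angptl2+/+ replicate 1. The share of the 10 genes in Angptl2+/+ replicate 1 over the median of the others was 5.47 from summed FPKM, 10.7 without Zic1, Neurod1 and Car8, and 4.16 to 6.25 when each other library was left out, an alternative added after the data were seen. The genes apart in Angptl2+/+ replicate 1 numbered 34 at 3-fold and 41 at a mean of at least 1 FPKM. The causes were not tested. At this depth a gene at 0 may have up to 3 fragments.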
